A study of Homo sapiens with 6 samples.

Results

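The genes described here are the 69 protein-coding genes whose mRNA stood clearly higher in every library of a PACT knockout of the LNCaP line than in any library of the parental line. They were selected on the measured values themselves. A gene was taken when it had at least 20 counts in each PACT KO library and when its lowest PACT KO level was at least 1.8 times its highest LNCaP parental level. Levels are CPM, a gene's counts scaled to a common total of reads counted on genes in each library. Of 29806 genes listed in the deposited counts, 11733 were protein-coding and had 20 or more counts in each PACT KO library, and 82 of these were past the threshold, which is 0.699%. Of the 82, 13 were left out by name, namely *NOVA1*, *PXDN* and members of gene families such as *RASSF*, *MAGE* and *HOX*, which leaves the 69, of which 67 are described by name. The same rule turned around, with the parental libraries as the higher ones, was met by 106 of 11729 genes (0.904%). Because the contrast between the groups chose these genes, no test of that contrast is given for any of them, and their levels and fold changes stand as a description.

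LNCaP is an androgen-responsive prostate cancer cell line that grew from a lymph node metastasis, and PACT is the double-stranded RNA-binding protein encoded by *PRKRA*. PolyA RNA was sequenced from 3 dishes of wild type LNCaP parental cells and from 3 dishes of LNCaP cells with a CRISPR knockout of PACT. All 6 dishes were 10 cm dishes grown in RPMI-1640 medium with 10% fetal bovine serum, and RNA was taken 48 h after plating at about 80% confluency. The knockout cells had been transfected with a plasmid for Cas9 and the guide, sorted for green fluorescence and grown from a single colony, and 1 clone was used. The parental cells are not described as having been transfected, sorted or cloned, so the loss of PACT cannot be told apart here from what sets 1 clone apart from its parental population. The replicates are dishes, and the spread between them is that of dishes.

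The libraries held 21835590 to 24940838 counted reads in the parental group and 19930060 to 24484415 in the PACT KO group. *PRKRA* itself was at 36.7 ± 1.79 CPM (mean ± SD, n = 3) in parental and 12.6 ± 0.962 CPM in PACT KO cells, a log2 fold change of -1.57 ± 0.07 (SE; edgeR quasi-likelihood test, FDR = 8.83e-21), so its mRNA was lower but still present, and mRNA does not measure the protein. All 13 markers of prostate luminal epithelium had more than 3 counts in some library and summed to 4802 to 4890 CPM in parental and 5175 to 5239 CPM in PACT KO libraries, with *KLK3* and *KLK2* called lower. Of the endothelial markers 5 of 6 had at most 3 counts in every library, as had 6 of 8 neuroendocrine markers, among them *CHGA* and *INSM1*, 4 of 6 leukocyte markers, 4 of 8 fibroblast and smooth muscle markers and 3 of 6 basal markers. The 8 neuronal markers summed to 22.01 to 24.8 CPM in parental and 40.4 to 42.7 CPM in PACT KO libraries, of which *MAP2*, one of the 69 genes, made up 82.7% to 86.0% and 92.1% to 92.9%, while *RBFOX3*, *SNAP25*, *STMN2*, *ELAVL4* and *GAP43* had at most 3 counts. In RNA from whole dishes, more cells that express a gene and more RNA per cell cannot be told apart.

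Some of the 69 genes, *CBLN2*, *UNC13C* and *KCND2* among them, are known from neurons. Neuroligins and secreted cerebellins help to join the sending and receiving sides of a synapse, while Munc13 and RIM proteins prepare vesicles for release and voltage-gated channels set the timing of calcium entry. The group also holds genes of the cytoskeleton, enzymes that add sialic acid to cell-surface glycans, flippases that move phospholipids between the leaflets of a membrane, and transcription factors that direct cell fates outside the prostate. Epithelial prostate cells are known for the secretion of kallikreins and for keratins.

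The promoters of the genes with the widest gap between the groups give a first view of how unlike they are in sequence. RefSeq promoter sequences (GRCh38.p14) were matched for 53 of the 69 genes. The 250 bases before the start of that set are shown for the 5 matched genes with the largest ratio of lowest PACT KO to highest parental level. They run 5′ to 3′ on the gene's strand, with each CpG in capitals, because the number of CpGs is what separates them. For *CBLN2* (72536681 to 72638521) and *UNC13C* (53837602 to 54633440) the window lies inside the gene's span, so it precedes an internal start. Some other windows of the 53, such as that of *TENM2*, do so too.

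CBLN2 chr18:72544343-72544592 (- strand): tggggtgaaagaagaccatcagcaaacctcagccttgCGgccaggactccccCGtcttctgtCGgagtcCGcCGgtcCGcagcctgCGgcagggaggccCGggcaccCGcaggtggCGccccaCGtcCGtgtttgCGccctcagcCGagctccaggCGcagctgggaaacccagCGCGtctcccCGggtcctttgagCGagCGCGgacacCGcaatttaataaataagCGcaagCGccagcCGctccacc

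GNG4 chr1:235650609-235650858 (- strand): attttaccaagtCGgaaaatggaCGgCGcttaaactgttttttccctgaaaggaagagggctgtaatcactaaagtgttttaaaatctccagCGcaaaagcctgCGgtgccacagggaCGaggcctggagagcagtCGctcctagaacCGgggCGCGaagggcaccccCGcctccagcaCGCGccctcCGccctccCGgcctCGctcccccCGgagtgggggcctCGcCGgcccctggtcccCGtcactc

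PHLDB2 chr3:111732246-111732495 (+ strand): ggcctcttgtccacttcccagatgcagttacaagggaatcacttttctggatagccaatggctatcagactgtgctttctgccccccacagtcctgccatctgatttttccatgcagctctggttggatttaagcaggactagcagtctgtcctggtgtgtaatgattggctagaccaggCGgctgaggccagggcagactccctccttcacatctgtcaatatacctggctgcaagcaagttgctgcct

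UNC13C chr15:53978191-53978440 (+ strand): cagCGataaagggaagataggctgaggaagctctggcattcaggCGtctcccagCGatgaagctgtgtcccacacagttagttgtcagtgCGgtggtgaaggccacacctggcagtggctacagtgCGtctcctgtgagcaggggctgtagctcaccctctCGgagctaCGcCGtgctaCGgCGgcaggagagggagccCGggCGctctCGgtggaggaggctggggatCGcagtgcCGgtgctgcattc

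VIM chr10:17227991-17228240 (+ strand): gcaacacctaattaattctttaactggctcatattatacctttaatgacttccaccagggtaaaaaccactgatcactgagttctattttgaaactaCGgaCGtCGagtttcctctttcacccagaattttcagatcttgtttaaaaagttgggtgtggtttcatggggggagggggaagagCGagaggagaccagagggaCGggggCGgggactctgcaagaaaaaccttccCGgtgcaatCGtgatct

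*CBLN2* held 25 CpGs in this window and *GNG4* 20, *UNC13C* held 15 and *VIM* 8, and *PHLDB2* held 1. Over the whole 300-base windows, which run 50 bases past the start, the ratio of observed to expected CpGs had a median of 0.739 in the 53 genes and 0.843 in the 10346 protein-coding genes that were tested and matched. It was under 0.6 in 17 of 53 (32.1%) against 17.1% of the 10346. Motifs were searched as exact letters on both strands. GGGCGG, the letters of a GC box, was present in 29 of 53 promoters (54.7%) against 70.3%, CCAAT in 18 (33.96%) against 37.0%, and CACCTG, an E-box, in 14 (26.4%) against 18.8%. TATAAA was found in 2 (3.77%) against 5.51%, AGAACA, the core letters of an androgen response element, in 3 (5.66%) against 8.75%, TGACGTCA in 1 (1.89%) against 3.26%, and TGACTCA in 0 of 53 against 2.81%. No motif of these 7 was in a majority of the promoters except GGGCGG, whose share lay below that of all promoters.

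The 69 genes were mostly quiet in the parental cells. Their mean parental level had a median of 2.04 CPM and ran from 0.292 to 198 CPM, against a median of 35.2 CPM over all protein-coding genes tested, and 57 of 69 (82.6%) lay under 10 CPM against 23.5% of those genes. In PACT KO cells the median was 5.62 CPM (0.951 to 387), and 1 gene, *ATP11A*, exceeded 100 CPM. Per kilobase of exon the median in PACT KO was 1.19 RPKM against 6.61 over all protein-coding genes tested. The rule sets a floor on counts only on the PACT KO side, which leaves room for low parental values, and low counts scatter more: the coefficient of variation between parental dishes had a median of 11.8% for the 69 genes and 3.73% for all protein-coding genes tested. The fold of the group means had a median of 2.58, with 64 genes at 2 or more, 27 at 3 or more and 15 at 4 or more, and it ran from 1.9 to 6.21 in the 67 genes described by name. Together they made up 591 to 610 CPM of a parental library and 1338 to 1343 CPM of a PACT KO library.

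**Figure D1:**
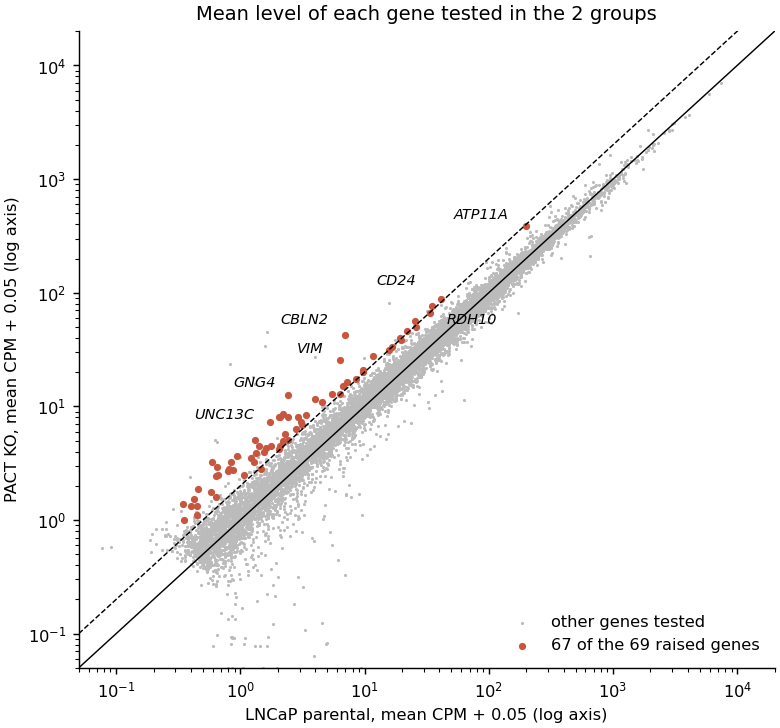
Mean level of every gene tested in LNCaP parental (x axis) and PACT KO cells (y axis), in CPM plus 0.05 on log axes, with 67 of the 69 genes in red, equal levels on the solid line and a doubling on the dashed line. The red points lie near or above the dashed line, and 55 of the 67 stand under 10 CPM on the x axis.

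In the model fitted over all 14462 genes tested, 444 were called higher in PACT KO (3.07%) and 383 lower (2.65%) at an FDR under 0.01 and a fold change of at least 1.5. All 69 genes lie past these thresholds, which follows from the rule and adds nothing to it. Their fitted log2 fold changes had a median of 1.34, beside a median of 0.00 over all genes tested, and those of the 67 ran from 0.90 to 2.60. The plot of single libraries shows that the 2 groups of 3 did not overlap for any gene, as the rule demands.

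**Figure D2:**
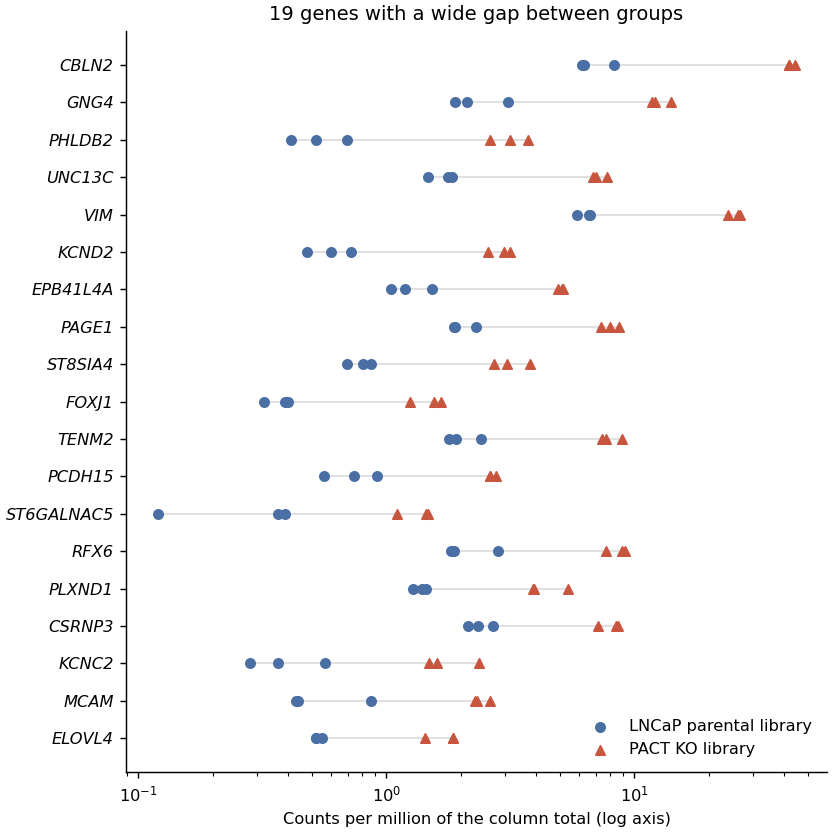
Level in each library, in CPM on a log axis, of 19 of the 20 genes with the largest ratio of lowest PACT KO to highest parental level (circles, LNCaP parental; triangles, PACT KO). *CBLN2*, at the top, has the widest gap of those drawn, and the parental libraries of *ST6GALNAC5* are the most scattered on this axis.

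Genes of synaptic adhesion and cell contact held some of the widest gaps. *CBLN2*, which encodes a secreted cerebellin that organises synapses, was at 6.24, 6.14 and 8.30 CPM in the 3 parental libraries and at 42.0, 44.3 and 42.0 CPM in the PACT KO libraries, a fitted log2 fold change of 2.60 ± 0.08 (SE). Its parental replicate 3 lay above the other two, and its PACT KO libraries lay close together. *NLGN4X*, a neuroligin, an adhesion molecule of the receiving side of the synapse, was at 4.34, 4.44 and 3.05 CPM in parental and 10.7, 12.5 and 11.5 CPM in PACT KO libraries (1.54 ± 0.12). Per length, *CBLN2* was the more abundant of these in PACT KO cells, at 7.65 RPKM against 1.56 RPKM for *NLGN4X*. *NLGN4X* has a near-identical copy on the Y chromosome, and reads common to both could be assigned to either.

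*TENM2*, a teneurin that contacts latrophilins on the facing cell, was at 1.91, 1.79 and 2.41 CPM in the parental and 8.94, 7.69 and 7.43 CPM in the PACT KO libraries (1.94 ± 0.13). *PCDH15*, a protocadherin of the tip links of inner-ear hair cells, was at 0.737, 0.916 and 0.561 CPM and 2.61, 2.60 and 2.76 CPM (1.82 ± 0.21). *MCAM*, an adhesion molecule of the immunoglobulin family also called CD146, was at 0.434, 0.870 and 0.441 CPM and 2.33, 2.27 and 2.61 CPM (2.02 ± 0.24). Parental replicate 2 of *MCAM* stood above the other two parental libraries, yet well below every PACT KO library. At the other end of this role group in level, *CD24*, a small glycoprotein anchored to the outer membrane, was at 39.9, 41.9 and 41.9 CPM and 86.3, 91.5 and 85.8 CPM (1.06 ± 0.04), and near-identical pseudogenes make its counting uncertain. *EFNB3*, an ephrin that guides axons, had means of 8.54 ± 0.662 CPM and 17.3 ± 0.101 CPM. The fold of means in these 7 genes ran from 2.02 to 6.21.

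Of the other genes on a list of synaptic adhesion proteins, 22 were tested, of which 4 were called higher and 1 lower, with a median log2 fold change of 0.18. *LRRTM4*, a leucine-rich repeat protein of the synaptic membrane, had 5, 3 and 9 counts in the parental and 33, 33 and 18 counts in the PACT KO libraries, 2.27 ± 0.38 on the log2 scale (edgeR, FDR = 4.63e-06). *IL1RAPL1*, a receptor-like organiser of synapses, rose from 2.57 ± 0.180 to 4.82 ± 0.432 CPM (0.88 ± 0.13, edgeR FDR = 1.11e-06). *TENM1*, a teneurin like *TENM2*, rose from 3.88 ± 0.494 to 6.26 ± 0.474 CPM (0.65 ± 0.12, edgeR FDR = 2.46e-05), but without LNCaP parental replicate 1 its value of 0.56 was under the fold threshold. *SLITRK6* fell from 3.16 ± 0.239 to 1.88 ± 0.522 CPM (-0.75 ± 0.17, edgeR FDR = 3.37e-04). *NRXN3* was called higher at 1.13 ± 0.35 (edgeR FDR = 0.0075), from 7, 9 and 13 counts in the parental and 25, 21 and 18 in the PACT KO libraries, but DESeq2 did not call it, and the edgeR call was lost when any 1 library other than LNCaP parental replicate 3 was left out. The other 17 did not pass both thresholds. Among them another SLITRK gene fell from a mean of 42.49 CPM in parental to 28.96 CPM in PACT KO cells. Its value of -0.581 (edgeR FDR = 3.62e-12) was just short of the fold threshold. In edgeR 9 of the 22 had higher and 4 lower values at an unadjusted p under 0.05.

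Genes of vesicle release and endocytosis formed a second group of 6. *UNC13C*, a Munc13 protein that primes vesicles for fusion, was at 1.47, 1.83 and 1.76 CPM in the parental and 7.76, 6.82 and 6.97 CPM in the PACT KO libraries (2.06 ± 0.14). The other 5 had folds of means close to 2. *STON2*, an adaptor for the uptake of synaptotagmin, had means of 19.3 ± 0.517 and 39.8 ± 0.592 CPM. *RAB27A*, the small GTPase that docks secretory granules, had means of 15.7 ± 0.389 and 31.6 ± 1.37 CPM. *RIMS4*, a short RIM protein, had means of 9.75 ± 0.525 and 20.7 ± 0.297 CPM. The dishes of a group scattered little for these genes. *NSG1*, an endosomal protein of neurons, stood at 2.74 ± 0.0803 and 6.31 ± 0.906 CPM, and *SNAP91*, which assembles clathrin coats, at 2.17 ± 0.112 and 4.93 ± 0.269 CPM. Exons of *RAB27A* share bases with *PIGB* and *PIGBOS1*, and 9.72% of those of *RIMS4* with *KCNK15* on the opposite strand, which had 0 or 1 count.

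The 4 ion channel genes described here encode channels of the voltage-gated kind. *KCND2*, which encodes the fast-inactivating potassium channel Kv4.2, was at 0.477, 0.595 and 0.722 CPM in the parental and 2.98, 3.14 and 2.56 CPM in the PACT KO libraries (2.24 ± 0.22). *KCNC2*, a potassium channel of fast-spiking neurons, was at 0.564, 0.366 and 0.281 CPM and 1.59, 1.49 and 2.36 CPM (2.11 ± 0.30). Here PACT KO replicate 3 stood apart above the other two, and 35.5% of the exon bases of *KCNC2* are also covered by an antisense transcript. The T-type calcium channels, which open at small depolarisations, came as a pair of paralogs. *CACNA1G* was at 1.99, 1.79 and 2.17 CPM and 4.41, 3.97 and 4.06 CPM (1.03 ± 0.14). *CACNA1H* was at 1.47, 1.47 and 1.32 CPM and 2.82, 2.69 and 2.71 CPM (0.92 ± 0.17), and in both genes the dishes of a group agreed closely. These 4 channels were below 5 CPM in PACT KO cells.

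Calcium channels are built of a pore with auxiliary subunits, and some of these moved as well. Of 7 other calcium channel genes tested, all 7 had a log2 fold change above 0, as had 50.1% of all genes tested, and 2 were called higher by edgeR and by DESeq2, with a median of 0.40. *CACNA2D2*, an alpha2delta subunit, rose from 15.1 ± 0.728 to 28.6 ± 0.901 CPM (0.89 ± 0.07, edgeR FDR = 1.59e-13). *CACNB2*, a beta subunit, rose from 3.11 ± 0.771 to 5.75 ± 0.463 CPM (0.86 ± 0.14, edgeR FDR = 2.25e-06). Of 18 other potassium channel genes tested, 2 were called higher and 1 lower, with a median of -0.12. *KCNH3* rose from 2.68 ± 0.162 to 4.70 ± 0.382 CPM (edgeR FDR = 7.08e-06). The calls of *KCNIP3* (0.80, higher) and *KCNH8* (-1.34, lower) were not stable, and DESeq2 made neither: *KCNIP3* lost its call without LNCaP parental replicate 2 or 3 or PACT KO replicate 1 or 3, with values of 0.49 to 0.86, and *KCNH8* without LNCaP parental replicate 3 or PACT KO replicate 1 or 2, with values of -1.34 to -1.01.

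Receptors and signalling proteins made up 9 of the genes. *GNG4*, a gamma subunit of heterotrimeric G proteins, was at 3.08, 2.11 and 1.88 CPM in the parental and 12.1, 14.1 and 11.8 CPM in the PACT KO libraries (2.40 ± 0.13). Of 21 other subunits tested, *GNAQ* was called higher, from 23.8 ± 0.517 to 38.5 ± 2.43 CPM (edgeR FDR = 1.51e-12), and 2 were called lower. *GNAI1* fell from 73.8 ± 1.66 to 48.3 ± 1.13 CPM (edgeR FDR = 7.87e-17). *GNA14* fell from 1.52 ± 0.187 to 0.699 ± 0.258 CPM (edgeR FDR = 5.30e-04), a call that was lost without PACT KO replicate 1, where its value was -0.88. The semaphorin receptor *PLXND1* was at 1.39, 1.28 and 1.44 CPM and 3.92, 3.89 and 5.42 CPM (1.63 ± 0.17), with PACT KO replicate 3 above the other two. *PLXNA4*, another plexin, was at 0.260, 0.504 and 0.441 CPM and 1.14, 1.36 and 1.35 CPM (1.64 ± 0.32), and at 0.0786 RPKM in PACT KO cells it was the lowest of the 69 per length. Among 22 other semaphorin, plexin and neuropilin genes tested, 0 were called higher and 2 lower by edgeR and by DESeq2. In edgeR 9 had higher and 4 lower values at an unadjusted p under 0.05, and 16 lay above 0 (50.1% of all genes tested did). The highest value, 0.580 for a plexin (edgeR FDR = 1.77e-14), was just under the fold threshold. Of the 2 called lower, *SEMA6D* had 12, 16 and 24 counts in the parental libraries and 0 in each PACT KO library (edgeR FDR = 6.19e-07), and *SEMA4G* fell from 7.34 ± 0.470 to 4.23 ± 0.546 CPM (edgeR FDR = 1.57e-07).

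The remaining signalling genes were a mixed set. *FGFR2*, a fibroblast growth factor receptor, had means of 1.72 ± 0.0911 CPM in parental and 4.39 ± 0.243 CPM in PACT KO cells. *CALCRL*, the receptor for calcitonin gene-related peptide and adrenomedullin, had means of 3.02 ± 0.265 and 7.21 ± 0.400 CPM. *CAMK2B*, a calcium and calmodulin-dependent kinase of synapses, had means of 9.59 ± 0.342 and 20.1 ± 0.798 CPM. Their folds of means were 2.56, 2.38 and 2.09, with little scatter between dishes. *RCAN2*, an inhibitor of calcineurin, stood at 2.87 ± 0.248 and 7.96 ± 1.11 CPM. *SOCS3*, which damps cytokine signalling, stood at 0.592 ± 0.133 and 1.53 ± 0.0955 CPM. *PTPRB*, a receptor phosphatase of endothelium, was just inside the threshold and is described with it. The endothelial markers summed to 24.2 to 26.6 CPM in parental and 15.7 to 18.0 CPM in PACT KO libraries, with *VWF* called lower and *PECAM1*, *CDH5*, *KDR*, *TEK* and *CLDN5* at 3 counts or fewer.

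The cytoskeletal group held a familiar pair of intermediate filament and microtubule genes. *VIM*, which encodes the mesenchymal intermediate filament vimentin, was at 5.85, 6.59 and 6.54 CPM in the parental and 26.6, 26.2 and 23.9 CPM in the PACT KO libraries (1.99 ± 0.09). *MAP2*, a microtubule-associated protein of dendrites, was at 20.5, 19.1 and 18.9 CPM and 37.2, 38.9 and 39.6 CPM (0.95 ± 0.06). *TNS1*, a tensin that links integrins to actin, was at 0.780, 0.687 and 1.00 CPM and 2.70, 2.40 and 3.01 CPM (1.66 ± 0.21). For *VIM* and *MAP2* the libraries of a group lay close together, while the parental libraries of *TNS1* rested on few reads. An antisense gene, *VIM-AS1*, covers 12.4% of the exon bases of *VIM* and had 7, 12 and 10 counts in the parental and 31, 29 and 11 in the PACT KO libraries. *PHLDB2*, which tethers microtubules at the cell cortex, was at 0.694, 0.412 and 0.521 CPM and 3.72, 2.60 and 3.16 CPM, a 5.83-fold ratio of means. *EPB41L4A*, a protein with a FERM domain, was at 1.04, 1.19 and 1.52 CPM and 4.90, 5.08 and 5.17 CPM (1.97 ± 0.16). Exons of *EPB41L4A* share 19.3% of their bases with its antisense neighbour *EPB41L4A-AS1*, whose counts of 479, 473 and 511 in the parental and 539, 522 and 404 in the PACT KO libraries showed no such gap. *FRMD3*, *PDZD4* and *FAM110B* had folds of means of 2.18, 2.29 and 2.53.

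Beside *VIM*, *TNS1* and *MCAM*, other mesenchymal genes were called in either direction. Of 9 more on that list with enough reads to be tested, 1 was called higher and 1 lower, and the median log2 fold change was -0.08. *TWIST1*, a transcription factor of mesenchyme, fell from 21, 19 and 20 counts in the parental to 2, 4 and 3 in the PACT KO libraries (-2.69 ± 0.48, edgeR FDR = 1.34e-05). *TIMP3* rose from 1.08 ± 0.106 to 1.94 ± 0.332 CPM (edgeR FDR = 0.00226), a call that was lost with DESeq2 (0.81) and without LNCaP parental replicate 1 (0.75) or PACT KO replicate 1 (0.70). Tubulins, none of which is among the 69, moved both ways, with 2 of 16 called higher and 3 lower. *TUBA1A*, the alpha-tubulin of developing neurons, rose from 137 ± 0.685 to 249 ± 13.0 CPM (0.84 ± 0.03, edgeR FDR = 1.50e-22). *TUBA1B* fell from 804 ± 17.0 to 533 ± 11.2 CPM (-0.62 ± 0.03, edgeR FDR = 3.89e-21). *TUBA4A* fell from 147 ± 2.95 to 95.7 ± 5.31 CPM (edgeR FDR = 2.49e-18), and *TUBB6* from 1.22 ± 0.168 to 0.339 ± 0.114 CPM (edgeR FDR = 2.05e-05). The alpha-tubulin genes are much alike in their coding sequence, so reads may have been shared between them.

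The 7 transcription factors and cofactors among the 69 were all under 10 CPM in both groups. *FOXJ1*, the master regulator of motile cilia, was at 0.390, 0.321 and 0.401 CPM in the parental and 1.55, 1.24 and 1.66 CPM in the PACT KO libraries (1.94 ± 0.31). *RFX6*, needed for the endocrine cells of the pancreas, was at 1.82, 1.88 and 2.81 CPM and 8.90, 7.69 and 9.13 CPM (1.94 ± 0.14). *CSRNP3*, a nuclear protein rich in cysteine and serine, was at 2.34, 2.70 and 2.13 CPM and 7.15, 8.60 and 8.43 CPM (1.73 ± 0.13). Of these *RFX6* and *CSRNP3* reached similar levels, and *FOXJ1* stayed under 2 CPM in every library. *ESRRG*, an orphan nuclear receptor, was at 1.08, 1.05 and 1.36 CPM and 3.43, 3.18 and 3.71 CPM (1.51 ± 0.17). *ID3*, an inhibitor of basic helix-loop-helix factors that responds to bone morphogenetic proteins, was at 2.43, 2.56 and 2.17 CPM and 5.31, 5.04 and 4.82 CPM (1.06 ± 0.13). *RAI2* and *TSHZ2* had folds of means of 4.03 and 2.38, both with PACT KO means of 2.45 CPM.

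Genes of motile cilia were tested beside *FOXJ1*, and 4 of 23 were called higher, with 19 above 0 (50.1% of all genes tested were) and a median of 0.25. By edgeR and DESeq2 0 were called lower, and 1 had a lower value at an unadjusted p under 0.05. *SPAG16*, a protein of the central pair of the axoneme, rose from 11.1 ± 0.726 to 19.01 ± 1.15 CPM (edgeR FDR = 1.43e-09). *CFAP126* rose from 3, 5 and 6 counts in the parental to 17, 22 and 15 counts in the PACT KO libraries (1.92 ± 0.45, edgeR FDR = 5.38e-04). *RFX2* and *EFHB* were called higher at 0.67 and 0.81 on the log2 scale. DESeq2 called neither of these. *RFX2* lost its call without LNCaP parental replicate 3 (0.51) or PACT KO replicate 1 (0.48), and *EFHB* without any 1 library other than LNCaP parental replicate 1, at values of 0.66 to 0.87. Of 30 other nuclear receptors tested beside *ESRRG*, 2 were called higher and 1 lower. *NR4A2* rose from 0.975 ± 0.133 to 1.95 ± 0.214 CPM (edgeR FDR = 3.52e-04), and *THRB*, a thyroid hormone receptor, fell from 48.2 ± 4.05 to 28.6 ± 0.416 CPM (edgeR FDR = 1.43e-15). *NR6A1* was called higher at 0.60 but fell under the fold threshold without LNCaP parental replicate 1 or 2 or PACT KO replicate 2 or 3, at 0.55 to 0.58.

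Signalling lists that bear on *ID3* and on cell fate held calls in both directions, while more of their genes lay above 0 than below. Of 29 other genes of TGF-beta and BMP signalling tested, 2 were called higher and 2 lower. In all, 23 of the 29 lay above 0 (50.1% of all genes tested did), with a median of 0.10. In edgeR 12 had higher and 3 lower values at an unadjusted p under 0.05. A SMAD gene with a lower value, -0.5847 (edgeR FDR = 3.28e-05), was just short of the fold threshold. *BMP6*, a ligand, rose from 7.73 ± 0.714 to 14.9 ± 0.421 CPM (edgeR FDR = 1.08e-10), and *LTBP1*, which holds latent TGF-beta in the matrix, from 5.22 ± 0.162 to 9.14 ± 1.42 CPM (edgeR FDR = 2.38e-07). The 2 called lower encode receptors: *BMPR1B* fell from 59.7 ± 1.801 to 25.3 ± 0.385 CPM (edgeR FDR = 6.39e-24) and *TGFBR2* from 1.33 ± 0.231 to 0.432 ± 0.0913 CPM (edgeR FDR = 3.65e-05). Among 39 genes of WNT signalling, of which none is among the 69, 4 were called higher and 3 lower. Here 27 of the 39 lay above 0, with a median of 0.22. *WLS*, the carrier that takes WNT proteins to the cell surface, rose from 23.2 ± 0.904 to 41.5 ± 0.483 CPM (edgeR FDR = 1.20e-15). *TCF7L1*, a transcriptional partner of beta-catenin, rose from 5, 6 and 9 counts in the parental to 32, 29 and 19 counts in the PACT KO libraries (edgeR FDR = 1.84e-05). The receptor *FZD2* fell from 2.05 ± 0.309 to 0.695 ± 0.225 CPM (edgeR FDR = 1.56e-06). The ligand *WNT5A* fell from 20.2 ± 1.62 to 13.4 ± 1.57 CPM (edgeR FDR = 1.17e-07), and its fold was under the threshold without LNCaP parental replicate 1 (-0.57) or PACT KO replicate 2 (-0.53).

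RNA-binding proteins were 3 in number, and *RALYL* had the highest level of them. *RALYL*, a relative of the heterogeneous nuclear ribonucleoprotein C, had means of 11.6 ± 0.420 CPM in parental and 27.8 ± 2.90 CPM in PACT KO cells. *MSI1*, a translational regulator of neural progenitors, had means of 5.38 ± 0.661 and 12.9 ± 0.757 CPM. *RBPMS2*, known from smooth muscle precursors, had means of 3.08 ± 0.465 and 6.81 ± 0.205 CPM. The 3 folds of means were within a narrow range, 2.21 to 2.41.

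Enzymes of sialic acid, membrane lipids and retinoids made up 8 of the genes, among them 2 sialyltransferases, 2 flippases and 2 enzymes of retinoic acid metabolism. *ST8SIA4*, which builds polysialic acid on the neural cell adhesion molecule, was at 0.694, 0.870 and 0.802 CPM in the parental and 3.80, 3.06 and 2.71 CPM in the PACT KO libraries (1.99 ± 0.20). *ST6GALNAC5*, which adds sialic acid to gangliosides, was at 0.390, 0.366 and 0.120 CPM and 1.47, 1.45 and 1.10 CPM (2.19 ± 0.35). The parental level of *ST6GALNAC5* rested on 9, 8 and 3 counts. Of 10 other sialyltransferases tested, 1 was called higher, *ST6GALNAC1*, from 3.91 ± 0.153 to 6.15 ± 0.199 CPM (edgeR FDR = 2.31e-05), while edgeR and DESeq2 called 0 lower, with 8 above 0 (50.1% of all genes tested were) and 2 lower at an unadjusted p under 0.05. The smaller edgeR FDR of these 2 was 5.27e-12, at a log2 fold change of -0.29, so only the fold threshold kept that gene from an edgeR call.

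The flippases *ATP11A* and *ATP10D* stood at opposite ends in level. *ATP11A*, which carries phosphatidylserine to the inner leaflet of the plasma membrane, was at 195, 200.5 and 199.6 CPM in the parental and 393, 375 and 392 CPM in the PACT KO libraries (0.93 ± 0.03). This was the highest level of the 69 in CPM, and per length it was close to that of *CD24*, with 28.2 RPKM against 28.4 RPKM in PACT KO cells. *ATP10D*, a flippase for glucosylceramide, was at 0.824, 0.504 and 0.962 CPM and 2.86, 3.35 and 2.11 CPM (1.82 ± 0.23). Of 11 others tested, *ATP8A1* was called higher, from 15.2 ± 0.833 to 23.3 ± 0.549 CPM (edgeR FDR = 1.43e-08), close enough to the fold threshold of 1.5 that the call was lost without LNCaP parental replicate 1 (0.55) or PACT KO replicate 2 (0.56).

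Both ends of retinoic acid metabolism were represented. *RDH10*, which oxidises retinol in the first step towards retinoic acid, was at 36.3, 34.8 and 33.9 CPM in the parental and 74.7, 80.4 and 75.9 CPM in the PACT KO libraries (1.11 ± 0.04). *CYP26B1*, which breaks retinoic acid down, was at 0.347, 0.137 and 0.561 CPM and 1.35, 1.20 and 1.25 CPM (1.78 ± 0.35). The level of *RDH10* was high and steady, and that of *CYP26B1* was near the lower limit of the rule in PACT KO cells. Of the 9 other genes of this pathway tested, edgeR and DESeq2 each called 0 in either direction, while edgeR gave an unadjusted p under 0.05 for 4 with higher and 1 with lower values. Most of these also had an edgeR FDR under 0.01 and missed the edgeR call on the fold threshold alone. *ELOVL4*, which makes fatty acids of very long chains, was at 0.520, 0.550 and 0.521 CPM and 1.43, 1.86 and 1.86 CPM (1.65 ± 0.27). Of 4 other elongases tested, 0 were called by edgeR or DESeq2, with 3 at an unadjusted p under 0.05, and their values ran from -0.25 to 0.13. These 3 also had an edgeR FDR under 0.01 and missed the edgeR call on the fold threshold alone. *ACOX2*, a peroxisomal oxidase of bile acid intermediates, had means of 1.51 ± 0.159 and 3.90 ± 0.716 CPM.

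Among the other enzymes, 2 were among the 5 genes of highest PACT KO level. *NXN*, the redox protein nucleoredoxin, was at 34.00, 33.2 and 33.3 CPM in the parental and 64.4, 67.5 and 65.2 CPM in the PACT KO libraries (0.94 ± 0.04). *SI*, the sucrase-isomaltase of the intestinal brush border, was at 23.7, 23.9 and 28.4 CPM and 58.7, 56.3 and 53.8 CPM (1.12 ± 0.05). Parental replicate 3 of *SI* was above the other two. *MEST*, an imprinted gene for a hydrolase, had means of 21.8 ± 1.33 and 46.1 ± 0.939 CPM, and antisense transcripts cover part of its exons. *NMNAT2*, the NAD-synthesising enzyme that sustains axons, had means of 16.5 ± 0.404 and 32.9 ± 0.638 CPM. *XDH*, xanthine dehydrogenase, and *CYP2S1*, a cytochrome P450, had folds of means of 4.04 and 2.99. Parental replicate 2 of *XDH*, at 1.42 CPM, stood well above the other parental libraries.

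Secreted and cell death proteins numbered 4. *SERPINB5*, the epithelial serpin maspin, was the highest of them in level. *GSDME*, a gasdermin that forms pores when cut by caspase, had means of 6.30 ± 0.759 CPM in parental and 12.7 ± 0.202 CPM in PACT KO cells. *CCN3*, a matricellular protein, had means of 1.23 ± 0.234 and 3.17 ± 0.352 CPM. *ALB*, the serum albumin of liver, had the lowest PACT KO level of the 69, 0.951 ± 0.117 CPM against 0.301 ± 0.0349 CPM in parental cells.

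The last 5 genes share no role. *PAGE1*, a cancer-testis antigen of the X chromosome, was at 1.86, 2.29 and 1.88 CPM in the parental and 8.70, 7.36 and 7.98 CPM in the PACT KO libraries (1.97 ± 0.13). Its relatives in the PAGE, GAGE, XAGE and SSX families were mostly too low to be tested, and the 2 that were had values of 0.03 and 0.05, with 0 at an unadjusted p under 0.05 in edgeR and 0 called by DESeq2. *CAPS2*, *MS4A8*, *SAMD5* and *C19orf81* had folds of means of 2.25, 2.73, 2.42 and 2.66. *C19orf81* was the lowest of these, at 1.06 ± 0.176 CPM in PACT KO cells.

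Over the 16 lists, 267 genes outside the 69 were tested, of which 26 were called higher (9.74%) and 16 lower (5.99%), beside 3.07% and 2.65% of all genes tested. The median log2 fold change of the 267 was 0.09, beside 0.00 over all genes tested. The lists were drawn up around families to which the 69 genes belong, with earlier results of these data known, so nothing is read from these shares about the families. Some 26 of the 69 genes are on a list.

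The threshold did not fall in a natural gap. Just inside it, *SERPINB5* had a ratio of lowest PACT KO to highest parental level of 1.801, with 25.1, 25.7 and 27.3 CPM in the parental and 49.1, 50.1 and 49.1 CPM in the PACT KO libraries. *PTPRB* had a ratio of 1.81, with 1.86, 2.70 and 2.08 CPM and 4.90, 5.62 and 6.32 CPM, and *MAP2*, given above, a ratio of 1.82. Just outside it, *SDK1* had a ratio of 1.797, with counts of 72, 48 and 78 in the parental and 138, 140 and 112 in the PACT KO libraries. *SLC15A2* had a ratio of 1.793, with 31, 23 and 30 counts and 59, 88 and 66 counts. *DCDC2* had a ratio of 1.780, with 12, 16 and 13 counts and 41, 39 and 26 counts. Genes on either side thus look alike, and membership near the threshold is a matter of a few reads.

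Some properties that the rule did not use differed between the 69 genes and the rest. The genes were long: the median span from start to end was 102924 bp, against 31299 bp for all protein-coding genes tested, and 36 of 69 (52.2%) exceeded 100 kb against 18.9%. *PCDH15* and *TENM2* each span more than 1 Mb. The length of the exons differed far less, with medians of 6037 and 5151 bases, as did that of the longest coding sequence, with medians of 512 and 483 residues. At least 1 hydrophobic stretch, a window of 19 residues of the length that crosses a membrane, was found in 33 of 69 proteins (47.8%) against 33.1%, and 4 or more in 7 (10.1%) against 7.09%. How far the low parental levels of the 69 go with their length or promoters was not tested.

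The 69 genes lay on 21 chromosomes. Chromosome 2 held 7 (10.1%, against 6.46% of protein-coding genes tested) and chromosome 6 held 6 (8.70% against 5.14%). Per 1000 such genes tested, chromosome 18 had the most, 11.2, from 2 genes. Only 3 pairs lay within 2 Mb of each other, *KCNC2* with *CAPS2*, *UNC13C* with *RAB27A* and *MEST* with *PLXNA4*. The nearest tested protein-coding gene on each side was called higher in 11 of 138 positions (7.97%) and lower in 5 (3.62%), against 2.94% and 2.82% of all protein-coding genes tested. Of the 11 positions 2 are held by *KCNC2* and *CAPS2* themselves, whose direction the rule fixes, and without these it was 9 of 136 (6.62%). These 9 include *KCNMB4* and *PTPRR*, next to *PTPRB*, and *GLIPR1L2*, next to *CAPS2*, all on chromosome 12, so the share rests in part on that chromosome. The 5 genes on each side of a gene had a median log2 fold change near 0 for most, with a median of 0.01 over the 69 and a range of -0.26 to 0.31. The highest of these belonged to *KCNC2* and *CAPS2*, which are next to each other on chromosome 12.

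This stretch was looked at after its values were seen. Between 75040078 and 76031776 on chromosome 12 (GRCh38, 0.992 Mb) lie 6 tested protein-coding genes, of which 5 lie past the thresholds for a higher level, the 2 of the 69 included. *GLIPR1* rose from 21, 15 and 18 counts in the parental to 37, 40 and 36 counts in the PACT KO libraries (1.06 ± 0.24, edgeR FDR = 4.79e-04). *PHLDA1* rose from 615, 592 and 674 to 1166, 1012 and 857 counts (0.69 ± 0.05, edgeR FDR = 8.68e-14). *GLIPR1L2* rose from 29, 30 and 32 to 59, 44 and 42 counts (0.67 ± 0.20, edgeR FDR = 0.00526), and *KRR1*, at 0.44 ± 0.03, was under the fold threshold. The spans of *GLIPR1* and the far more abundant *KRR1* overlap, and whether their exons share bases was not checked. Of the 5 tested genes after *PHLDA1*, 0 were called higher, and their median was 0.21. The highest of them, *OSBPL8*, was at 0.40 ± 0.03, and the lowest and last, *E2F7*, at -0.50 ± 0.09. Of the 649 tested genes of the whole chromosome, 23 lay past the thresholds for a higher level, and the median of the 649 was -0.01. Nearer the centromere, both neighbours of *PTPRB* were called higher as well, *PTPRR* at 0.75 ± 0.08 (edgeR FDR = 3.05e-10) and *KCNMB4* at 0.72 ± 0.20 (edgeR FDR = 0.00341). Next to *PTPRR*, *TSPAN8* was at 0.91 ± 0.37 and not called, from 14, 10 and 6 counts in the parental and 21, 20 and 16 in the PACT KO libraries. The genes between *TSPAN8* and *KCNC2* were near 0. The number of copies of this region in the clone was not measured here.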

How the data were processed

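The deposited values are whole-number read counts per gene, listed by NCBI Gene number, which the authors made without normalization. The submitters' processing notes name bcl2fastq 2.20.0.422, STAR 2.5.3a, StringTie 1.3.3, featureCounts 1.5.3 and the build hg38. The annotation and the use of strand in counting are not given in the sources used here. Reads on the 1 row that names no gene (0.0688% to 0.0708% of a library) entered neither totals nor tests. Symbols were matched for 27540 of 29806 gene numbers (92.4%) from RefSeq GRCh38.p14.

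CPM were computed on column totals. Genes were kept with edgeR's filterByExpr, scaled by TMM (factors 0.985 to 1.02) and compared with glmQLFit and glmQLFTest (edgeR 4.0.16, R 4.3.3), 2-sided, with Benjamini-Hochberg adjustment over 14462 genes. SE is the absolute log2 fold change divided by the square root of F. A call needed an FDR under 0.01 and a fold change of at least 1.5, the thresholds of the study. DESeq2 1.42.0, another scaling, no filter, a replicate block, other thresholds of the rule and each library left out were alternatives. The test was first run on simulated data. Tables and figures were made in Python 3.11.15 with numpy 2.4.6, pandas 2.3.3 and matplotlib 3.10.9.

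Exon lengths, overlaps and coding sequences came from GENCODE release 29, and RPKM divide CPM by the kilobases of merged exons. Hydrophobic stretches are windows of 19 residues with a mean Kyte-Doolittle value of at least 1.6, and signal peptides can count among them. Promoters with no entry in the RefSeq table were not used. The last bases of the promoter window were found in a GENCODE transcript of the same gene for 44 of 53 genes.

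The 69 genes, the 16 pathway lists and the 7 marker lists were chosen with earlier results of these data known, and roles were assigned after the values were seen. Values per library are given for the 20 genes with the widest ratio, those on a list, the 5 with the highest PACT KO mean and those next to the threshold, while results for a few genes are not reported here. Of each list, at most the 4 called genes with the smallest p are named, apart from the genes of chromosome 12 and of the exon overlaps. No library was left out, and no pair of libraries was identical.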

Additional observations from a re-analysis of the deposited data

How the results depend on the processing

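With a fold threshold of 1.5 in place of 1.8 the rule took 161 genes, and with 2 it took 42. With TMM-scaled totals it took 64, with at least 10 or 50 counts 84 or 56, and with 1 library left out 77 to 84. The fitted log2 fold change of all 69 genes stayed above 0 in each alternative fit, and their median ran from 1.33 to 1.37. The count of genes called higher was 336 with DESeq2, 447 with another scaling, 505 without a filter and 393 to 450 with 1 library left out, and for genes called lower 338, 376, 428 and 357 to 392. Of the 42 list genes called, 14 lost the call in at least 1 alternative fit, among them *NRXN3* (1.13), *FZD8* (-0.62), *ROR2* (0.73), *TUBB1* (1.69), *TIMP3*, *KCNIP3*, *KCNH8*, *RFX2* and *EFHB*, the 9 that DESeq2 did not call. Same-numbered dishes did not deviate together more than others did. Their correlations over genes were -0.10, 0.01 and -0.09, and those of dishes with unlike numbers ran from -0.12 to 0.18. Such values cannot show whether dishes were handled in numbered pairs, and the main fit used no pairing. A replicate block gave 426 genes called higher and 374 lower. Counts under about 20 per library limit the precision of the parental levels of the lowest genes, *ST6GALNAC5* and *CYP26B1* among them.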

Other observations

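Beside the protein-coding genes, 4 noncoding genes met the same count and fold thresholds. *LINC01019*, a long noncoding RNA, had 7, 8 and 9 counts in the LNCaP parental and 53, 57 and 51 counts in the PACT KO libraries. *PITX1-AS1*, an antisense RNA, was far more abundant, with 2172, 2100 and 2311 counts against 4519, 4412 and 3841. *LOC90246* had 743, 729 and 732 counts against 1650, 1702 and 1350, and the transcribed pseudogene *FAR2P1* had 106, 132 and 145 counts against 322, 312 and 262. They were selected by the same values, so no test is given.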
